A study of Homo sapiens with 9 samples.

Results

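Exon peaks are the ARID binding sites that the authors' annotation placed in an exon. They numbered 242 of the 12852 ARID1A peaks (1.88%), 206 of the 8728 ARID1B peaks (2.36%) and 245 of the 12995 ARID2 peaks (1.89%), 693 of 34575 in all. The members were taken by that deposited class alone. Its promoter class came first and held the sites with a distance under 1000 bp, so the deposited distance of an exon peak is at least about 1000 bp. That distance ran mostly from the middle of the peak, so a wide exon peak can still reach a transcript start. The sites came from ChIP-seq in unperturbed HepG2 cells, an established human liver cancer line, with antibodies against ARID1A, ARID1B, ARID2 and SNF5 (2 libraries each) and 1 input library. Chromatin was fixed with formaldehyde and digested with micrococcal nuclease. For each subunit the authors merged both replicates before calling peaks, so every list is 1 set of intervals with no replicate error and unknown depth. Each test below compares deposited lists, treats peaks as independent and cannot tell the subunit apart from its antibody or the depth of its libraries.

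SWI/SNF complexes use the energy of ATP to slide or evict nucleosomes. ARID1A and ARID1B are alternative DNA-binding subunits of the BAF form of the complex, ARID2 belongs to the PBAF form, and SNF5 (BAF47, SMARCB1) is a core subunit of both. In liver cells these complexes are known mostly from promoters and enhancers, and exons that lie near a promoter or inside an enhancer can be covered as well. Genes of the marker list for liver cancer cells (ALB, AFP, APOA1, APOB, SERPINA1 and TTR) were named as nearest gene for 3 of 6 in the ARID1A list, 5 in the ARID1B list and 4 in the ARID2 list. The 3 lists named 0 of them for an exon peak. Over all names with a peak, only 2.57%, 3.30% and 2.57% had an exon peak, so with so few genes this 0 is only a description. Peak lists hold no expression values, so the cell type itself could not be checked.

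The sequences below show coding exon peaks of genes described later. They are hg19 sequence on the strand of the gene, 5′ to 3′, and capitals mark a match to 1 of the 7 motifs described later. The FZD5 peak was taken by a rule on width and coding overlap. The other peaks were chosen after their values were seen, as coding sites in genes of transcription factors that act in liver or bile duct cells. FZD5 encodes a Wnt receptor, and its 132 bp ARID1B peak (chr2:208631993-208632124, minus strand, exon 2 of 2) was overlapped by peaks of the other ARIDs and of SNF5. FOXA2, a forkhead pioneer factor of liver, had a 61 bp ARID2 peak (chr20:22563369-22563429, minus strand, exon 2 of 2). CEBPB, a basic leucine zipper factor, had a 190 bp ARID2 peak (chr20:48808394-48808583, plus strand, exon 1 of 1). SOX9, a factor of bile duct and progenitor cells, had a 250 bp ARID1B peak (chr17:70120136-70120385, plus strand, exon 3 of 3). The FOXA2 and SOX9 peaks each held 1 GC box, read on the printed strand as CCGCCC, and the FZD5 and CEBPB peaks held no match.
FZD5: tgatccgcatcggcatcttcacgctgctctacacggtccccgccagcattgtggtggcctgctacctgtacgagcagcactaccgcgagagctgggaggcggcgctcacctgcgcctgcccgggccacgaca
FOXA2: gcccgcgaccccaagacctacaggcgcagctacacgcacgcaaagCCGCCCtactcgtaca
CEBPB: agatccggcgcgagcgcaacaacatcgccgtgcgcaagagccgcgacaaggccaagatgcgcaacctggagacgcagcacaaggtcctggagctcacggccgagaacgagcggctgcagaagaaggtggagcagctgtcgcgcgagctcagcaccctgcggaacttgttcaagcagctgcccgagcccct
SOX9: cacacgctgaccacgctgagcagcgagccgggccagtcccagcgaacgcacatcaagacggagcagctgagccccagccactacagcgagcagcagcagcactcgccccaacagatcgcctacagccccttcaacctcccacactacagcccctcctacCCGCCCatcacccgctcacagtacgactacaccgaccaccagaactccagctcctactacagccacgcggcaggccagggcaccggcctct

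The first question was how large the exon class was in each list. The share was higher for ARID1B than for ARID1A (2.36% against 1.88%, two-sided Fisher exact test, adjusted p = 0.0260) and than for ARID2 (1.89%, adjusted p = 0.0260). Between ARID1A and ARID2 the odds ratio was 0.999 (Fisher exact test, adjusted p = 1). Both differences were lost when peaks at most 1000 bp apart were joined into 1 region (odds ratios 0.870 and 1.15, Fisher exact tests, adjusted p = 0.255).

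Exon peaks lay closer to transcript starts than intron peaks did, and their widths were near those of intron peaks. The median distance to the nearest start was 2257 bp in the ARID1A list (quartiles 1366.5 and 4000.2), 3057 bp in the ARID1B list (1607.5 and 7732) and 1993 bp in the ARID2 list (1397 and 3966). At most 5000 bp from a start lay 81.0% of the exon peaks in the ARID1A list, 65.5% in the ARID1B list and 81.6% in the ARID2 list, while for intron peaks the values were 55.8%, 39.7% and 61.2%. A promoter peak of the same ARID lay within 1000 bp of 19.4% (ARID1A), 3.88% (ARID1B) and 18.4% (ARID2) of exon peaks. For intron peaks these shares were 11.5%, 2.36% and 14.8%, and for distal peaks 6.96%, 2.04% and 7.51%. By Gencode v44, a later annotation on the same assembly, 28.5%, 27.7% and 27.8% of exon peaks lay upstream of the nearest start. Of intron peaks, 38.3%, 41.6% and 34.2% did. Because the class was assigned partly by distance, these distances describe the class and were not tested. The median width was 184.5 bp in the ARID1A list, 160 bp in the ARID1B list and 150 bp in the ARID2 list. Intron peaks had medians of 171.5, 162 and 166 bp. The smallest width of each list, 53, 52 and 52 bp, was that of 12, 27 and 25 exon peaks (4.96%, 13.1% and 10.2%). Over all peaks of each list these shares were 5.87%, 13.6% and 6.77%.

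**Figure D1:**
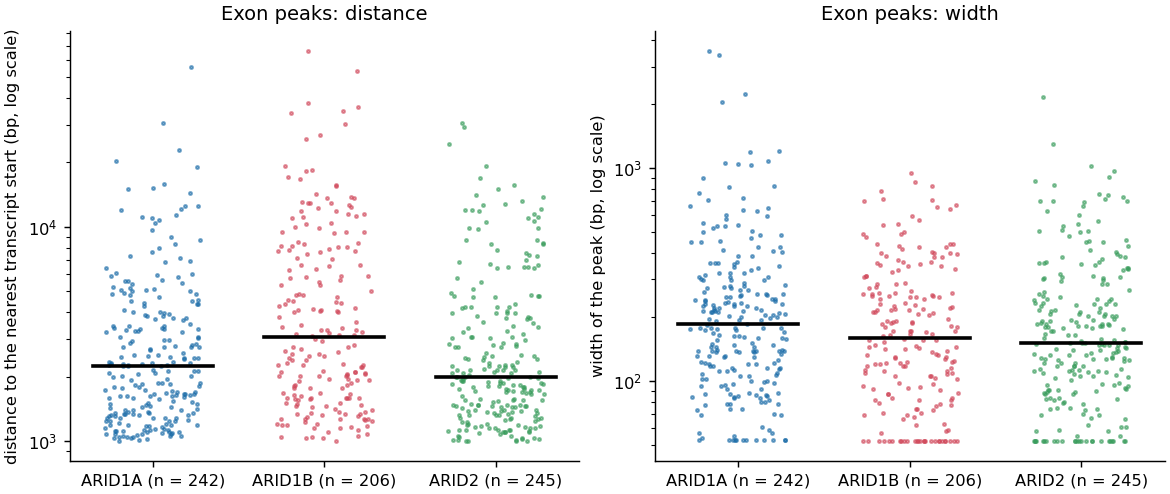
Distance to the nearest transcript start as deposited (left) and peak width (right) of each exon peak, both in bp on log scales, with 1 point per peak and a black line at the median of each list. The ARID1B points reach farther from transcript starts (median 3057 bp) than those of ARID1A (2257 bp) and ARID2 (1993 bp), and only ARID1A and ARID2 have exon peaks over 1000 bp wide.

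In the ARID1A list the widest exon peaks lay at RHOB, a small GTPase (chr2:20646168-20649726, 3559 bp), at FTL, the ferritin light chain (chr19:49468204-49471604, 3401 bp), and at HEXIM1, an inhibitor of the elongation kinase P-TEFb (chr17:43224676-43226910, 2235 bp). All 3 covered a Gencode v44 transcript start although their deposited distances were 1109, 1343 and 1106 bp. Distances in the lists were measured from the middle of the peak in 73.7% of the 505 exon peaks whose named gene was found in v44 (within 5 bp), and from the nearest edge in 4.16%. In all, 23 exon peaks covered a v44 start. The widest ARID1B exon peaks were narrower, at PAX8 (949 bp), CTDSP1 (856 bp, in an exon of the neighbouring SLC11A1) and ZFP36L2 (820 bp). The widest ARID2 exon peaks lay at FZD5 (2156 bp), at ZFP36L2 (1304 bp) and at a site on chromosome 6 (1018 bp wide, 9877 bp from the nearest start). ZFP36L2 encodes an RNA-binding protein that destabilises AU-rich mRNAs.

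The exon peaks farthest from a transcript start were at LPA, which encodes apolipoprotein(a), in the ARID1A list (55611 bp, exon 19 of 39), at the small RNA snoU13, inside the last exon of RNF144B, in the ARID1B list (66228 bp), and at the non-coding gene RP11-323F24.1 in the ARID2 list (30436 bp). The last of these covered a transcript start in v44, at a distance of 0 bp, so its distance holds only for the deposited annotation. LPA has near-identical kringle exons, and the placement of reads among them is uncertain. Neither the LPA nor the snoU13 peak overlapped a peak of another list, whereas the RP11-323F24.1 site was shared by all 3 ARIDs and SNF5. The nearest gene was therefore not always the gene whose exon was bound. Among exon peaks whose named gene is in v44, it was the host of the exon for 132 of 179 ARID1A peaks (73.7%), 109 of 147 ARID1B peaks (74.1%) and 138 of 176 ARID2 peaks (78.4%). Peaks assigned to copies of the small RNA U6, for example, lay in exons of WBP1L, RAPSN and FAM8A1.

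By v44 annotation, 233 of the 693 exon peaks met coding sequence (33.6%), 210 a 3′ UTR without coding bases (30.3%), 221 an exon of a non-coding transcript (31.9%), 16 a 5′ UTR and 13 no exon. Wholly exonic were 511 (73.7%), and 99 were wholly coding (14.3%). Within 1000 bp of a v44 start, measured from the nearest edge, lay 49 ARID1A, 16 ARID1B and 53 ARID2 exon peaks (20.2%, 7.77% and 21.6%). Last exons held 330 peaks and internal exons 117, while first exons of genes with several exons held 9. Single-exon genes, such as JUN, CEBPB and HEXIM1, held 17.4% of the ARID1A, 9.40% of the ARID1B and 21.1% of the ARID2 exon peaks that met a canonical transcript. Such genes account for 6.22% of canonical exon bases at least 1000 bp from a start, last exons for 64.1%, internal exons for 28.8% and first exons for 0.836%. Last exons took 60.9%, 67.8% and 54.2% of these peaks. The base shares leave out bases within 1000 bp of a v44 start, while the peak shares keep exon peaks there. The shares of peaks and of bases therefore come from unlike sets. Chromosome 17 held 14.9% of ARID1A, 13.6% of ARID1B and 13.9% of ARID2 exon peaks, against 9.44%, 7.99% and 8.06% of all peaks.

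The next question was how often the core subunit SNF5 was found at exon peaks. SNF5 peaks overlapped 145 of 242 ARID1A exon peaks (59.9%, Wilson 95% interval 53.6 to 65.9), against a background of 71.3% of all ARID1A peaks. They overlapped 121 of 206 ARID1B exon peaks (58.7%, 51.9 to 65.2), against 62.9% of all ARID1B peaks. They overlapped 144 of 245 ARID2 exon peaks (58.8%, 52.5 to 64.8), against 67.2% of all ARID2 peaks. The share was below that of promoter peaks in each list: 73.5% for ARID1A (odds ratio 0.539, adjusted p = 2.87e-05), 77.2% for ARID1B (0.421, adjusted p = 1.46e-07) and 70.5% for ARID2 (0.597, adjusted p = 3.70e-04, two-sided Fisher exact tests). Intron peaks overlapped SNF5 in 64.4%, 54.0% and 57.6% and distal peaks in 67.2%, 54.1% and 64.4%, and none of these 6 comparisons with exon peaks passed the threshold. Between the lists, exon peaks did not differ in SNF5 overlap (adjusted p = 1 for each of the 3 pairs by Fisher exact tests), although some exon peaks of different lists cover the same site and are not independent. The ARID2 difference from promoter peaks did not pass the threshold within strata of GC content (odds ratio 0.814). In the ARID1B list the odds ratio turned to 1.35 when the overlap had to cover at least 50% of both peaks (Fisher exact test, adjusted p = 0.493). Only 7.28% of ARID1B exon peaks and 5.51% of its promoter peaks met SNF5 under that rule, so the comparison rests on few peaks.

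SNF5 peaks were broad, and some of those at exon peaks reached a transcript start as well. The SNF5 peak over an exon peak also covered a v44 transcript start in 45 of 145 ARID1A cases (31.0%), 32 of 121 ARID1B cases (26.4%) and 52 of 144 ARID2 cases (36.1%). SNF5 peaks that overlapped an exon peak had median widths of 1137, 1202 and 1337 bp, close to those over intron peaks (1127, 1013 and 1127 bp), while promoter peaks gave 906, 1232.5 and 954 bp and all SNF5 peaks 535 bp. Their median score, the whole number deposited with each SNF5 peak, was 23 in each of the 3 lists, against 19 over all SNF5 peaks and 22 to 24 at promoter, intron and distal peaks.

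Exon peaks were shared between ARIDs less often than promoter peaks. A peak of another ARID overlapped 90 of 242 ARID1A exon peaks (37.2%, 31.3 to 43.4), against 47.6% of all ARID1A peaks. The count was 73 of 206 for ARID1B (35.4%, 29.2 to 42.2), against 40.1% of all its peaks, and 101 of 245 for ARID2 (41.2%, 35.2 to 47.5), against 46.9%. Promoter peaks were shared more often, in 49.9%, 65.5% and 53.3% (odds ratios 0.594, 0.290 and 0.614, adjusted p = 2.00e-04, 2.55e-16 and 3.69e-04 by Fisher exact tests). Within strata of GC content the ARID2 odds ratio was 1.01, and within strata of width the ARID1A one was 0.730, and neither passed the threshold there.

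Against introns the lists parted. By two-sided Fisher exact tests, exon peaks of ARID1B were shared more often than its intron peaks (35.4% against 21.5%, odds ratio 2.00, adjusted p = 5.76e-05), and so were those of ARID2 (41.2% against 28.3%, odds ratio 1.78, adjusted p = 1.38e-04). In the ARID1A list the shares were 37.2% and 39.5% (odds ratio 0.908, adjusted p = 0.592, two-sided Fisher exact tests). The odds ratio of ARID1B was higher than that of ARID1A by 1.14 on the log2 scale (SE 0.30, 95% interval of the difference 0.55 to 1.73), and that of ARID2 by 0.97 (SE 0.29, 0.41 to 1.53). Both differences passed the Wald test, which treats the lists as independent although the same overlap can count in both lists. When the overlap had to cover at least 50% of both peaks, the odds ratios of ARID1B and ARID2 were 1.06 and 1.39 (Fisher exact tests, adjusted p = 0.843 and 0.291). Against distal peaks, by the same exact test, ARID1A exon peaks were shared less often (44.4% at distal peaks, odds ratio 0.743, adjusted p = 0.0477) and ARID1B exon peaks more often (27.9%, odds ratio 1.42, adjusted p = 0.0359), while ARID2 gave 39.8% (odds ratio 1.06, adjusted p = 0.677). The ARID1A and ARID1B calls were each lost under 5 or more of the alternatives given in the closing section.

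**Figure D2:**
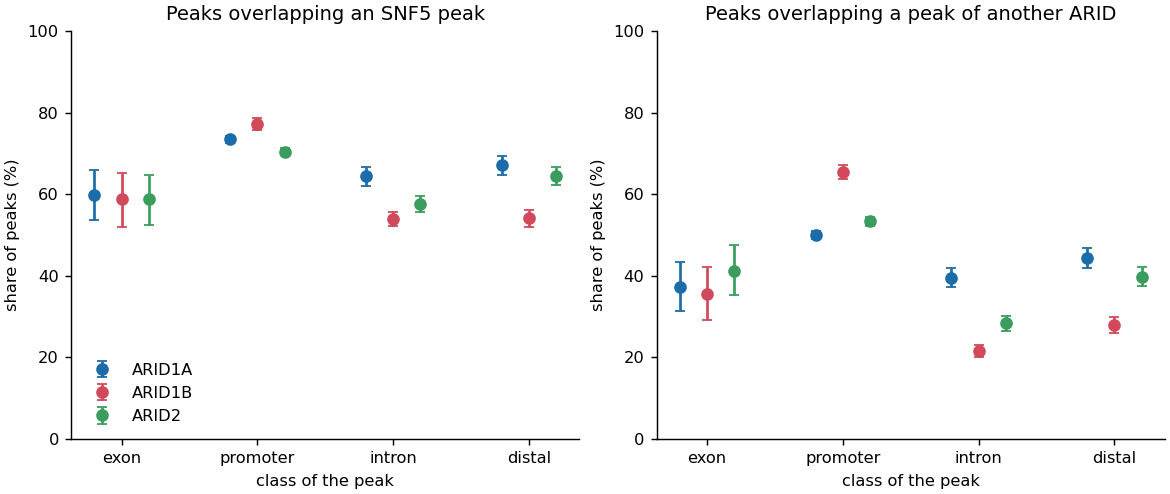
Share of peaks that overlap an SNF5 peak (left) or a peak of another ARID (right), in percent, for exon, promoter, intron and distal peaks of the 3 ARID lists. Points are shares and bars Wilson 95% intervals. Exon peaks of the 3 lists sit together at 58.7% to 59.9% for SNF5, below the promoter peaks, while for overlap with another ARID the intron points spread from 21.5% (ARID1B) to 39.5% (ARID1A).

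Pairs of ARIDs shared exon peaks unequally, with the same order of partners as over all peaks. ARID2 peaks overlapped 28.1% of ARID1A exon peaks (40.4% of all ARID1A peaks) and ARID1B peaks 19.4% (20.9% of all). Of ARID1B exon peaks, 24.8% met ARID1A (32.1% of all) and 22.8% met ARID2 (27.2% of all). Of ARID2 exon peaks, 32.7% met ARID1A (41.7% of all) and 16.3% met ARID1B (18.1% of all). The partner was itself classed as exon in most cases, for example in 60 of the 68 ARID1A exon peaks met by ARID2. Joining overlapping exon peaks of the 3 lists gave 567 regions. Of these, 161 held exon peaks of ARID1A only, 148 of ARID1B only and 166 of ARID2 only. Peaks of other classes were not joined, so such a region can still meet another ARID. For example, 20 ARID2 exon peaks met ARID1A only at a peak of another class. ARID1A and ARID2 shared 40 regions, ARID1A and ARID1B 20, ARID1B and ARID2 15, and 17 held exon peaks of all 3.

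SNF5 was much more frequent at shared exon peaks. It overlapped 88.9% of shared against 42.8% of single ARID1A exon peaks (odds ratio 10.7), 94.5% against 39.1% for ARID1B (26.9) and 83.2% against 41.7% for ARID2 (6.92), with adjusted p = 2.75e-13, 6.65e-16 and 4.69e-11 by two-sided Fisher exact tests. Over all peaks of these lists SNF5 overlapped 71.3%, 62.9% and 67.2%. The contrast of shared with single peaks was not computed over all peaks, so it is not known to be particular to exon peaks. Under the 50% rule for both peaks none of the 3 contrasts passed (Fisher exact tests, adjusted p = 0.328). That rule also redefined shared peaks, and only 5.37%, 7.28% and 3.67% of exon peaks met SNF5 under it. SNF5 peaks over exon peaks had median widths of 1137 to 1337 bp, against 150 to 184.5 bp for exon peaks. Few exon peaks could therefore meet the rule, and it cannot decide the contrast. All 17 regions of all 3 ARIDs and all 20 of ARID1A with ARID1B met an SNF5 peak. So did 33 of 40 of ARID1A with ARID2 (82.5%) and 12 of 15 of ARID1B with ARID2 (80%). Of the regions with exon peaks of 1 list only, 44.7% (ARID1A), 44.6% (ARID1B) and 47.6% (ARID2) met one. Shared exon peaks were also wider, with medians of 288, 265 and 232 bp against 160.5, 124 and 128 bp for single ones. The SNF5 peaks over them had median scores of 25, 26 and 25, against 21, 22 and 21 over single ones.

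Width moved with both kinds of overlap. Of exon peaks of at most 100 bp, SNF5 overlapped 41.5% (ARID1A, n = 53), 38.3% (ARID1B, n = 60) and 49.3% (ARID2, n = 67). Of those over 400 bp it overlapped 39 of 41 (95.1%), 25 of 26 (96.2%) and 33 of 33 (100%). Another ARID overlapped 22.6%, 13.3% and 22.4% of the narrow peaks and 80.5%, 80.8% and 84.8% of the wide ones. A wider interval has more bases that can meet another interval, and this share of the pattern was not tested. Peaks of the other classes were not counted in these bins of width, so the pattern is not known to be particular to exon peaks. Distance moved with SNF5 overlap less. At most 2000 bp from a start the shares were 65.7%, 66.7% and 61.3%, and beyond 5000 bp they were 50%, 50.7% and 51.1%. Coding and 3′ UTR peaks were close in each list, at 58.5% and 53.3% in the ARID1A list, 54.0% and 61.5% in the ARID1B list and 63.2% and 55.7% in the ARID2 list.

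**Figure D3:**
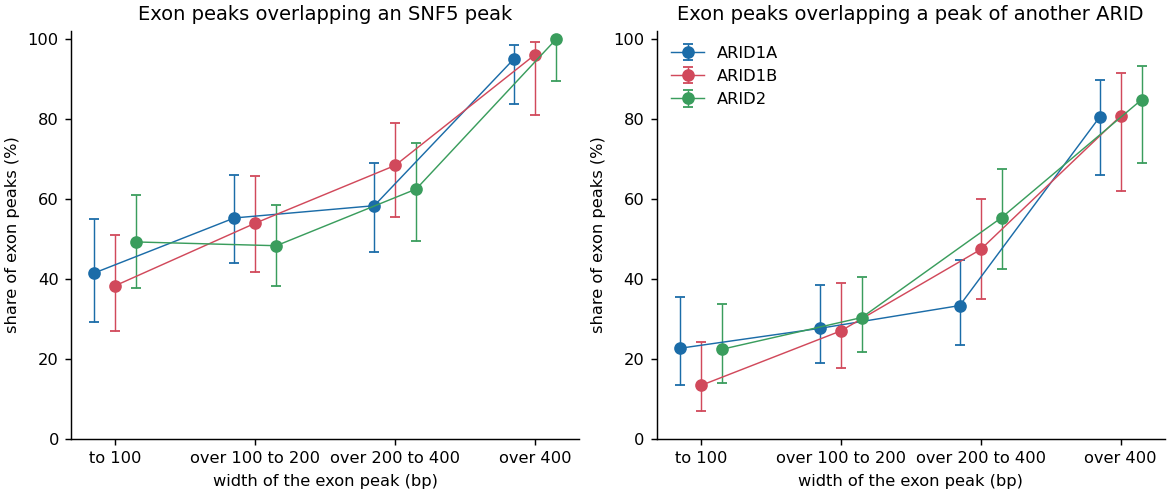
Share of exon peaks that overlap an SNF5 peak (left) or a peak of another ARID (right), in percent, in 4 bins of peak width in bp, with Wilson 95% intervals as bars and 1 colour per list. In every list the bin over 400 bp is highest, at 95.1% or more for SNF5 and 80.5% or more for another ARID. Peaks of other classes were not binned.

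FZD5, a site of all 3 ARIDs, had the most exon peaks of any gene name (11, together with NEAT1, which had none of ARID1B). Its ARID1A list held 4 (widths 115 to 1197 bp), the ARID1B list 5 (52 to 711 bp) and the ARID2 list 2 (499 and 2156 bp), all within exon 2 between 1262 and 4024 bp from the named start. A single SNF5 peak of 5043 bp (score 32) lay over all 11. HEXIM1 had 8 exon peaks, 2 of ARID1A, 3 of ARID1B and 3 of ARID2, and ZFP36L2 had 8, 1 of ARID1A, 3 of ARID1B and 4 of ARID2. SNF5 overlapped 7 of the HEXIM1 peaks and all 8 at ZFP36L2, which lay under an SNF5 peak of 10245 bp. At RHOB the 3559 bp ARID1A peak met 118 bp (ARID1B) and 89 bp (ARID2) exon peaks, which did not overlap each other. One wide ARID1A peak thus joined sites that stood apart in the other lists, and neighbouring peaks of a gene could differ in class, as the maps show.

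**Figure D4:**
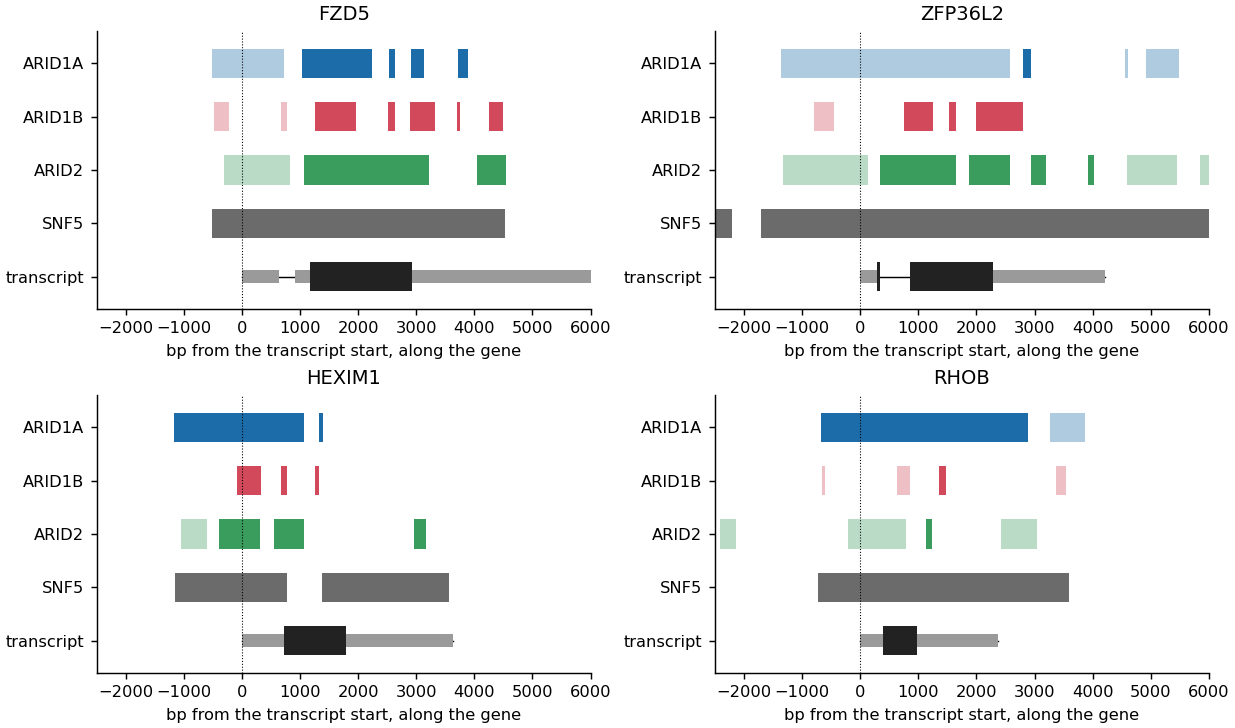
Peaks of the 4 lists around FZD5, ZFP36L2, HEXIM1 and RHOB, in bp from the start of the canonical transcript (dotted line), along the direction of the gene. Full colours are exon peaks, pale colours ARID peaks of other classes, dark grey SNF5 peaks, and the lowest row shows the transcript with coding parts in black and other exon parts in grey. At FZD5 the 11 exon peaks fall under 1 SNF5 peak of 5043 bp, and at RHOB 1 ARID1A peak of 3559 bp spans the gene.

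Other shared regions of the 3 ARIDs, in order of the width of the ARID1A peak, lay at the lncRNA LINC00324 (765 bp), at FOXQ1, a forkhead factor (712 bp), at WBP2, a transcriptional coactivator (633 bp), at GNAT1, a G protein of rod photoreceptors (532 bp), at AC005041.17 in an exon of the homeobox gene LBX2 (485 bp), at PIWIL2, a piRNA-binding protein of germ cells (408 bp), at the non-coding genes RP11-328M4.3 (347 bp) and RP11-323F24.1 (332 bp), and at MED29, a Mediator subunit (297 bp). The scores of the SNF5 peaks over these sites ran from 16 at AC005041.17 to 35 at LINC00324. At FOXQ1 and GNAT1 the ARID1B and ARID2 exon peaks did not overlap each other, and each met the ARID1A peak. The gene names assigned to exon peaks were 455 in all, of which 116 occurred in 2 or 3 lists and 30 in all 3. The ARID1A and ARID2 lists shared 71 names (32.7% and 35.3% of their own), ARID1A and ARID1B 57 (26.3% and 31.1%), and ARID1B and ARID2 48 (26.2% and 23.9%). The same overlap over the names of all peaks was not computed. Whether names of exon peaks are shared more or less than other names is therefore not known.

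Among the other gene names with at least 4 exon peaks, some had them in 1 or 2 lists and others in all 3. NEAT1, the lncRNA scaffold of paraspeckles, had 4 ARID1A and 7 ARID2 exon peaks along its single exon (distances 1585 to 7784 bp) and 0 of ARID1B. JUN, an AP-1 subunit, had 2 ARID1A and 3 ARID2 exon peaks (1013 to 3030 bp), all under SNF5 peaks with scores of 20 and 23, and again 0 of ARID1B. HSPA1B, a stress-induced Hsp70 chaperone with a near-identical copy in HSPA1A, had 2 ARID1A and 2 ARID2 exon peaks and 0 of ARID1B. Whether such a missing peak reflects depth cannot be told apart from binding. GPR171, a G protein-coupled receptor, had 1 ARID1A, 2 ARID1B and 1 ARID2 exon peak under an SNF5 peak with a score of 68. SOX9 had 1 ARID1A, 1 ARID1B and 2 ARID2 exon peaks under an SNF5 peak with a score of 31.

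Members of the liver and regulatory gene lists with an exon peak numbered 0 to 3 per list. Of 22 hepatocyte factor genes, 13 had an ARID1A peak of any class and 1 an exon peak (CEBPD), 12 had an ARID1B peak and 0 an exon peak, and 16 had an ARID2 peak and 2 an exon peak (CEBPB and FOXA2). Of 43 genes of secreted liver proteins, 19, 23 and 20 had a peak and 0 an exon peak in each list. Of 20 immediate early genes, 16, 9 and 17 had a peak, and exon peaks were assigned to JUN in the ARID1A list, to ZFP36 in the ARID1B list and to IER5, JUN and ZFP36 in the ARID2 list. The ARID1B peak named for ZFP36 lay 6359 bp from its start, in the 3′ UTR of the neighbouring MED29. Of 25 SWI/SNF subunit genes, 16, 8 and 17 had a peak, and 1 had exon peaks, ARID2 itself, in its last exon, in the ARID1B list (363 bp) and the ARID2 list (239 bp). Over all names, 2.57%, 3.30% and 2.57% of genes with a peak had an exon peak. Counts this small are given as descriptions.

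A gene with an exon peak also had a promoter peak of the same ARID in 53.0% of 217 ARID1A genes, 28.4% of 183 ARID1B genes and 56.7% of 201 ARID2 genes. For genes with intron but no exon peaks the shares were 50.3%, 20.7% and 54.2%. The differences did not pass the threshold (two-sided Fisher exact tests, adjusted p = 0.546, 0.0546 and 0.546), but did for each list when classes were assigned from v44 (odds ratios 1.40, 1.64 and 1.34, adjusted p = 0.0220, 0.00140 and 0.0319). The v44 classes also took the distance from the nearest edge of the peak, so the measure changed along with the annotation.

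Exon peaks that met neither another ARID nor SNF5 made up 87 of 242 in the ARID1A list (36.0%), 81 of 206 in the ARID1B list (39.3%) and 84 of 245 in the ARID2 list (34.3%). Over all peaks the shares were 23.5%, 33.2% and 27.4%, and over intron peaks 31.6%, 44% and 40.1%. Their median widths were 140, 109 and 130.5 bp, against 220, 215 and 186 bp for the rest. The widest were at NRARP, a feedback inhibitor of Notch signalling (457 bp), and KAZALD1 (428 bp) for ARID1A, at ACAN, the cartilage proteoglycan aggrecan (384 bp), and ZNF451 (364 bp) for ARID1B, and at GPR137 (385 bp) and RPS29, a ribosomal protein gene (355 bp), for ARID2.

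TBC1D30, which encodes a Rab GTPase-activating protein with a TBC domain, held an arrangement that no other gene examined had. It carried 8 ARID2 exon peaks, 4 named for it and 4 for the neighbouring RP11-766N7.1 (3.27% of all ARID2 exon peaks). They lay in exons 4, 5, 6, 7, 9, 10, 11 and 12 of its 12 exons, and a ninth ARID2 peak, classed as promoter, lay in exon 1. All 9 lay wholly inside an exon and none in an intron, although exons make up 13.8% of the 56387 bp of the gene. In exons 4 to 11 the peaks began 8 to 38 bases after the first base of the exon and ended 13 to 62 bases before its last. ARID1A and ARID1B had 0 peaks in the gene, and SNF5 had 2, of 126 bp in exon 5 (score 36) and 435 bp in exon 12 (score 20), also wholly exonic. Exons 4 to 7 are printed here (hg19, plus strand, chr12:65224157-65224282, chr12:65225899-65226084, chr12:65230270-65230438 and chr12:65232463-65232631), with the bases of the ARID2 peak in capitals, to show how the peaks keep within the exons.
exon 4: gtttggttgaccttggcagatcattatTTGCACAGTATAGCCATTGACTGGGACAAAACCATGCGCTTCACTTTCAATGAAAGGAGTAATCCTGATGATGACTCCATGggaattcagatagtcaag
exon 5: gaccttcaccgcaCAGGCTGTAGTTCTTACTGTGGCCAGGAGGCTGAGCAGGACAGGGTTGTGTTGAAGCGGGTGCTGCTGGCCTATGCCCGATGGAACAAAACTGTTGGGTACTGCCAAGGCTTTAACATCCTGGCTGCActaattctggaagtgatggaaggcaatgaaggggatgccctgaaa
exon 6: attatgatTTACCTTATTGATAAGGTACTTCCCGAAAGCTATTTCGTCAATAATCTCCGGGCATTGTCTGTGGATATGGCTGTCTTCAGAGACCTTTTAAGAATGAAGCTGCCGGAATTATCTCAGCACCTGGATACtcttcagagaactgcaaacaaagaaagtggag
exon 7: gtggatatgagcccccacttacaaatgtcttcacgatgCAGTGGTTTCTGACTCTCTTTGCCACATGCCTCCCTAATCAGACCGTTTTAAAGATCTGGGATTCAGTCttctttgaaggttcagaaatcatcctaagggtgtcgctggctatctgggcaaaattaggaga

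Among protein-coding genes with at least 5 exons and at least 5 peaks of 1 list in the canonical transcript (58 genes in the ARID1A list, 78 in the ARID1B list, 95 in the ARID2 list and 258 in the SNF5 list), TBC1D30 in the ARID2 list was the only gene in which all peaks were wholly exonic. Leaving out gene models that span it, at most 2 exons of a gene held such a peak, and at most 40% of a gene's peaks were wholly exonic. The median share was 0% in each list. What lies behind the pattern was not tested. Without the TBC1D30 peaks, 59.9% of ARID2 exon peaks overlapped SNF5 and 42.6% another ARID, and no call of the ARID2 comparisons changed.

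**Figure D5:**
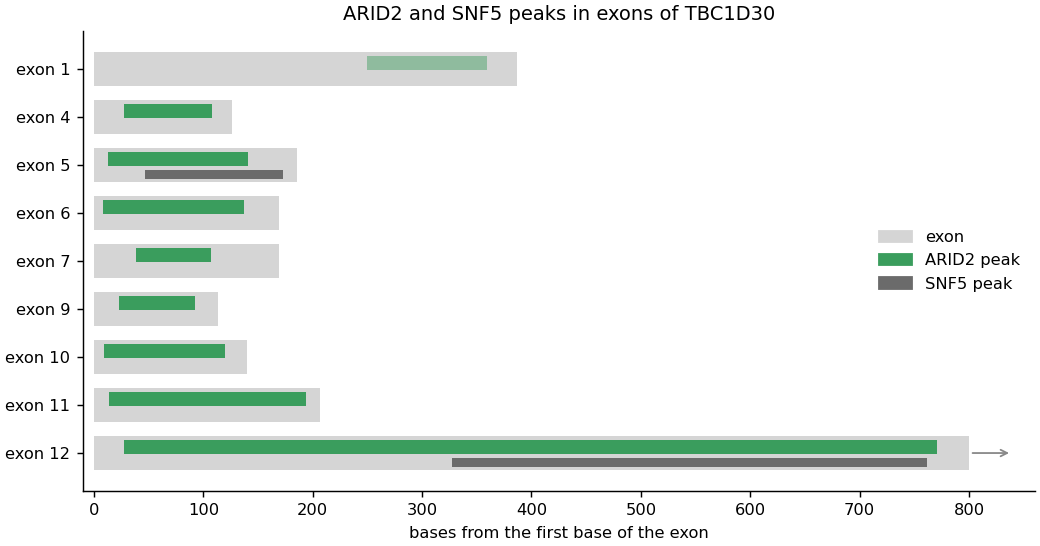
The 9 exons of TBC1D30 that hold an ARID2 peak, drawn to scale from their first base (grey), with ARID2 peaks in green (pale for the peak classed as promoter) and SNF5 peaks in dark grey. The arrow marks exon 12, which runs on to 6033 bases. Each of the 9 ARID2 and 2 SNF5 peaks begins and ends within its exon.

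ARID1A peaks had the highest median GC content of the 3 lists in every class, exon peaks included. The median of ARID1A exon peaks was 58.9%, against 50.9% for ARID1B and 51.4% for ARID2. Promoter peaks had 66.7%, 63.1% and 61.5%, intron peaks 51.8%, 46.6% and 47.6%, and distal peaks 54.2%, 47.8% and 50%. Motif matches on either strand were counted in windows of 200 bp around the middle of each peak, as a description of letters and not of binding. The GC box (GGGCGG) was in 26.4% of ARID1A, 12.6% of ARID1B and 13.5% of ARID2 exon windows, against 52.3%, 41.4% and 40.3% of promoter, 15.1%, 8.13% and 8.53% of intron and 21.3%, 11.5% and 13.4% of distal windows. The AP-1 site (TGANTCA) was in 7.02%, 1.94% and 6.94% of exon windows (17, 4 and 17 peaks), against 9.25%, 8.81% and 8.05% of intron windows. Promoter windows held the AP-1 site in 2.89%, 3.90% and 3.03%. The Wilson interval of the ARID1B exon share (0.758 to 4.89) lay below its intron share but held its promoter share. The CCAAT box (CCAAT) was in 15.7%, 18.0% and 19.2% of exon and 20%, 21.2% and 23% of intron windows. The E box (CACGTG) was in 4.96%, 1.94% and 4.90% of exon and 3.45%, 2.53% and 3.26% of intron windows. The forkhead motif (TGTTTAC) was in 2.07%, 3.88% and 2.45% of exon and 4.84%, 5.74% and 5.50% of intron windows. The ETS motif (CCGGAAG) was in 3.31%, 1.46% and 2.45% of exon, 1.75%, 1.11% and 1.14% of intron and 9.27%, 6.75% and 7.58% of promoter windows. The HNF4 motif (CAAAGTCCA) was in 0.826%, 2.91% and 2.04% of exon and 1.63%, 1.42% and 1.14% of intron windows.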

How the data were processed

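Chromatin from HepG2 cells was analysed by ChIP-seq in 9 libraries, which were grouped by the antibody named in their titles. Per the study's methods, the authors mapped single-end reads with bowtie2 (also named in the submitters' processing notes) on the hg19 build, filtered duplicates, pooled replicates with samtools, called broad peaks with MACS2, joined neighbouring peaks and removed blacklisted regions. The deposited values are peak boundaries and distances in bp, with feature class, nearest gene (Gencode V16), single or multiple label and chromatin state for the ARID peaks. The SNF5 list has a whole-number score as deposited by the authors, whose formula was not given in the sources used here. The files hold no read counts, so depth is unknown and intervals cover counting error over peaks only. Columns of other samples numbered 0.

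Exon peaks were the peaks of the deposited class Exon. The members and the gene and motif lists were chosen with earlier results of these data known. Overlap required 1 common base between peaks of different lists, and starts were converted to counting from 1. Differences between shares were tested by two-sided Fisher exact tests (SciPy 1.17.1), and shares were given Wilson 95% intervals (statsmodels 0.14.6). Adjusted p-values are Benjamini-Hochberg values within 6 families of 3 or 9 tests, with a threshold of 0.05. Effects of different lists were compared by the Wald test of the difference in log odds ratios, adjusted over 12 tests. Strata were 5 quantile classes of width or GC content (Mantel-Haenszel). Exons and sequences came from Gencode v44 lifted to GRCh37 (pysam 0.24.0), as Gencode V16 was not used here. Classes from v44 used the distance from the nearest edge of the peak, unlike most deposited distances. The overlap and test functions were tested on simulated data.

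The genes and peaks named were the regions of all 3 ARIDs (up to 12), the 3 widest and 3 farthest exon peaks per list, gene names with at least 4 exon peaks, the 2 widest peaks per list that met no other list, and members of the gene lists. The peaks in TBC1D30 were met through this rule, and their comparison with exon edges, the bins of width and distance, and the sequences of FOXA2, CEBPB, SOX9 and TBC1D30 were chosen after seeing the values. The chromatin state column was used only for the check in the closing section.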

Additional observations from a re-analysis of the deposited data

Results flagged for a closer look

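The 4 results below were singled out because the odds ratio of the same comparison differed between lists by a Wald test. All concern overlap of peaks with another ARID, and each value is a difference in log2 odds ratio. The Wald test treats the lists as independent, although the same overlap can count in both lists.

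For exon against intron peaks, ARID1B exceeded ARID1A by 1.14 (95% interval 0.55 to 1.73) and ARID2 exceeded ARID1A by 0.97 (0.41 to 1.53). The values beside them are the intron shares, 21.5% for ARID1B, 28.3% for ARID2 and 39.5% for ARID1A, since the exon shares lay between 35.4% and 41.2%. Across 10 alternatives the first difference ran from 0.01 to 1.43 and the second from 0.41 to 1.22.

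For exon against promoter peaks, the difference of ARID1B from ARID1A was -1.04 (-1.61 to -0.47), and ARID2 exceeded ARID1B by 1.08 (0.52 to 1.65). Promoter peaks of ARID1B overlapped another ARID in 65.5%, those of ARID1A in 49.9% and those of ARID2 in 53.3%. Across 9 alternatives these ran from -1.59 to -0.45 and from 0.75 to 1.53. The lists differ in size (8728 peaks for ARID1B against 12852 and 12995), and the part of list size or depth in these differences was not tested.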

How the results depend on the processing

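The 30 results were recomputed under 240 alternatives, 189 of them planned and 51 added after seeing the data. In 186 the direction and the side of the threshold did not change, in 23 a call was lost, in 8 a call was gained and in 23 the odds ratio crossed 1. Of these 23, 19 belonged to a comparison that was not called, 4 ended a call and 0 were called after crossing. No paired analysis was possible because replicates were merged before peaks were called, and for the same reason no replicate could be left out. All values below are odds ratios. With a reciprocal overlap of at least 50%, SNF5 overlap of ARID1B exon against promoter peaks crossed to 1.35, and SNF5 at shared against single exon peaks was 0 for ARID1A (0 shared peaks met the rule), 1.95 for ARID1B and 2.04 for ARID2. Few exon peaks met SNF5 under this rule (5.37% for ARID1A, 7.28% for ARID1B and 3.67% for ARID2). Overlap with another ARID was then 0.752 for ARID1A against promoter, 0.758 for ARID1A against distal, 1.06 for ARID1B against intron, 0.767 for ARID1B against distal (crossed) and 1.39 for ARID2 against intron peaks. With gaps of at most 1000 bp, ARID1B exon against distal peaks gained a call for SNF5 (1.49), and ARID1A exon against distal peaks lost that for another ARID (0.747). With midpoints at most 500 bp apart, SNF5 calls were gained for ARID1A against intron (0.694), ARID1A against distal (0.603) and ARID2 against distal peaks (0.664), while calls were lost for another ARID at ARID2 exon against intron peaks (1.31) and for SNF5 at shared ARID1A exon peaks (1.49). With v44 classes, ARID1B against distal peaks gained an SNF5 call (1.33), ARID1A against distal peaks lost that for another ARID (0.892), and genes with exon peaks gained promoter calls (1.40, 1.64 and 1.34 for ARID1A, ARID1B and ARID2). The ARID1A exon against distal call for another ARID was also lost on autosomes (0.748), after joining peaks at most 1000 bp apart (0.743), within strata of width (0.704) or GC content (0.797), and between 1000 and 5000 bp from a start (0.829). The ARID1B one was lost after joining (1.36), within strata of width (1.35) or GC content (1.25), and between 1000 and 5000 bp (1.30). Joining also ended the differences in exon share (0.870 and 1.15). Strata of width ended the ARID1A exon against promoter call for another ARID (0.730). Strata of GC content ended that of ARID2 for SNF5 (0.814) and moved it across 1 for another ARID (1.01). Comparisons that were not called crossed 1 as follows. With a reciprocal overlap, ARID1A exon against intron peaks gave 1.04 for SNF5 and 1.05 for another ARID, ARID2 exon against distal peaks gave 0.795 for another ARID, and SNF5 overlap of exon peaks gave 0.723 for ARID1A against ARID1B and 2.06 for ARID1B against ARID2. With gaps, SNF5 gave 1.04 at ARID2 exon against distal peaks and 0.866 for ARID1A against ARID2 exon peaks. With midpoints, SNF5 gave 0.973 and 0.845 at ARID1B and ARID2 exon against intron peaks, 0.801 for ARID1A against ARID1B and 1.28 for ARID1B against ARID2 exon peaks, and another ARID gave 0.804 at ARID2 exon against distal peaks. Joining gave 0.999 for SNF5 at ARID2 exon against intron peaks and 1.07 for ARID1B against ARID2 exon peaks, and strata of GC content gave 0.969 for the former. The exon share of ARID1A against ARID2 was 1.01 with v44 classes, 1.00 after joining and 1.03 without the TBC1D30 peaks. Between 1000 and 5000 bp, ARID1A exon against intron peaks gave 1.02 for another ARID. The cause of these changes was not tested.

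The deposited intervals have no counts behind them, and no limit of detection was computed for a site missing from a list.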

Other observations

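The deposited chromatin state differed between lists at the same site in an uneven way. Where peaks of different lists overlapped on chromosome 1, they carried the same state in 86.1% of 475 pairs of ARID1A and ARID2, 86.2% of 218 pairs of ARID1A and ARID1B and 82.0% of 172 pairs of ARID1B and ARID2. On the other chromosomes the shares were 48.2% of 5143, 39.3% of 2662 and 35.04% of 2286 pairs. The feature class of the same pairs matched in 94.0% to 98.5% on chromosome 1 and in 97.2% to 98.2% elsewhere. States of exon peaks were therefore left out of the report.

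Of the exon peaks in internal canonical exons of protein-coding genes, 12 of 37 for ARID1A (32.4%, Wilson 95% interval 19.6 to 48.5), 9 of 24 for ARID1B (37.5%, 21.2 to 57.3) and 16 of 38 for ARID2 (42.1%, 27.9 to 57.8) lay wholly inside the exon. TBC1D30 supplied 7 of the 16 ARID2 peaks.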
